A study of Sus scrofa with 12 samples.

Results

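STAT2, IRF1, IRF2, IRF9, IFIT5, ISG15, ADAR, B2M and TAP1, genes of the interferon response, were examined in IPEC-J2 cells, a cell line of epithelium from the pig small intestine. They were chosen by symbol, as every merged peak listed under these names and the same genes in the table of expression values. The 9 genes stand among 21368 in the deposited tables, and their 20 peaks among 25055. All 9 have an expression value, 8 have a peak, and IRF9 has none. Of the 20 peaks, 11 lie under 1 of these genes alone and 9 also touch another gene.

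The study profiled N6-methyladenosine (m6A) by MeRIP-seq, in which fragmented RNA is sequenced before and after pull-down with an antibody against m6A. Per the labels, wild-type IPEC-J2 cells received OAA, the abbreviation of 2-oxindole-3-acetic acid, at 25 µM for 24 h, and the control (CON) received 0 µM for 24 h. Each treatment has 3 numbered replicates, and each replicate a library labelled IP and one labelled input, which makes 12 libraries in 4 groups of 3. Nothing in the labels says that the replicates were grown separately, so p-values reflect only how far these libraries vary, and that variation may be technical. All 12 carry the same batch label. The labels name no interferon or virus among the treatments.

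Interferons bind receptors at the cell surface, whose JAK kinases phosphorylate STAT proteins. STAT2 and IRF9 are parts of the complex that switches on most targets of type I and type III interferon, while IRF1 and IRF2 bind related promoter elements, IRF1 mainly as an activator and IRF2 mainly as its antagonist. The products of the target genes include IFIT5, which binds viral RNA, ISG15, a ubiquitin-like protein attached to other proteins, ADAR, which edits adenosine to inosine in double-stranded RNA, TAP1, one subunit of the peptide transporter of the endoplasmic reticulum, and B2M, the light chain of MHC class I. m6A is known to lie often near stop codons, and it marks transcripts for reader proteins such as YTHDF2 that speed decay.

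Depth, counted as reads in peaks, ran from 16491095 to 23010413 in the libraries labelled input and from 3709352 to 4607452 in those labelled IP, and the log2 ratio of the authors' deposited table followed labelled input over labelled IP across peaks (r = 0.999 in CON; peaks are not independent replicates). The titles and these values thus point to different libraries as the antibody part. Groups keep the names of their titles here. The peak ratio below divides labelled input by labelled IP on the log2 scale, as the deposited ratio does. Should the titles be right, enrichment by the antibody would have the opposite sign. The deposited expression values belong, by their column codes, to the 6 libraries labelled IP. Should the titles be right, every FPKM level, rank and read number per FPKM below describes RNA after pull-down with the antibody, and not expression. Among those, OAA library 3 lay farthest from the mean over genes, with a root mean square deviation of 0.141 on the log2(FPKM + 1) scale against 0.1003 to 0.115 in the other 5. Some results that use it are also given without it. Epithelial markers were present, with 5 of 6 at 1 FPKM or more and KRT8, a keratin, at 396 FPKM. VIL1, of the brush border, was at 0.245 FPKM. Of the fibroblast markers, 0 of 5 reached 1 FPKM, with DCN and LUM at 0, and of the leukocyte markers 1 of 6 did (CD79A at 6.22), with PTPRC at 0. Of the 4 endothelial markers chosen, VWF was not matched to an expression value. The other 3 all reached 1 FPKM, at up to 3.78 FPKM (CDH5). The summed epithelial level was 1021 to 1113 in CON and 946 to 1065 in OAA.

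The 9 genes spanned more than 2 orders of magnitude in FPKM, a level per transcript length and library size, and none passed the test for a difference with OAA. In bulk RNA, fewer cells expressing a gene and less RNA per cell cannot be told apart. The gene listed as B2M was by far the highest, at 923, 910 and 937 FPKM in the CON libraries and 910, 951 and 890 in the OAA libraries, the 69th highest level in the table. IFIT5 came next, at 52.4, 56.6 and 50.1 FPKM in CON and 47.6, 48.3 and 57.9 in OAA. TAP1 was at 27.7, 27.9 and 29.2 FPKM in CON and 28.7, 30.3 and 26.3 in OAA. The ranges of these 3 genes over the 6 libraries lay apart from each other and from the rest.

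Among the transcription factors, IRF2, STAT2 and IRF1 had overlapping ranges, so their order is not settled. IRF2 was at 12.4, 11.9 and 12.3 FPKM in CON and 11.7, 11.6 and 12.3 in OAA. STAT2 was at 12.1, 11.8 and 10.8 FPKM in CON and 12.4, 11.6 and 11.3 in OAA. IRF1 was at 9.28, 11.2 and 10.9 FPKM in CON and 11.5, 11.3 and 10.5 in OAA. IRF9, the DNA-binding partner of STAT2, was the lowest of the 9, at 2.39, 3.25 and 2.69 FPKM in CON and 2.72, 3.38 and 2.77 in OAA. Its range lay below that of every other member.

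The remaining effectors lay between, and their ranges overlapped. ISG15 was at 6.28, 6.99 and 7.36 FPKM in CON and 7.10, 7.57 and 4.67 in OAA, where library 3 alone fell below the CON range. ADAR was at 5.17, 5.37 and 5.37 FPKM in CON and 5.77, 5.70 and 5.41 in OAA. It was the 1 gene of the 9 whose treatment groups did not overlap, all OAA libraries lying above all CON libraries. Over the 10763 genes tested, 3.28% had OAA wholly above CON and 5.27% wholly below.

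**Figure D1:**
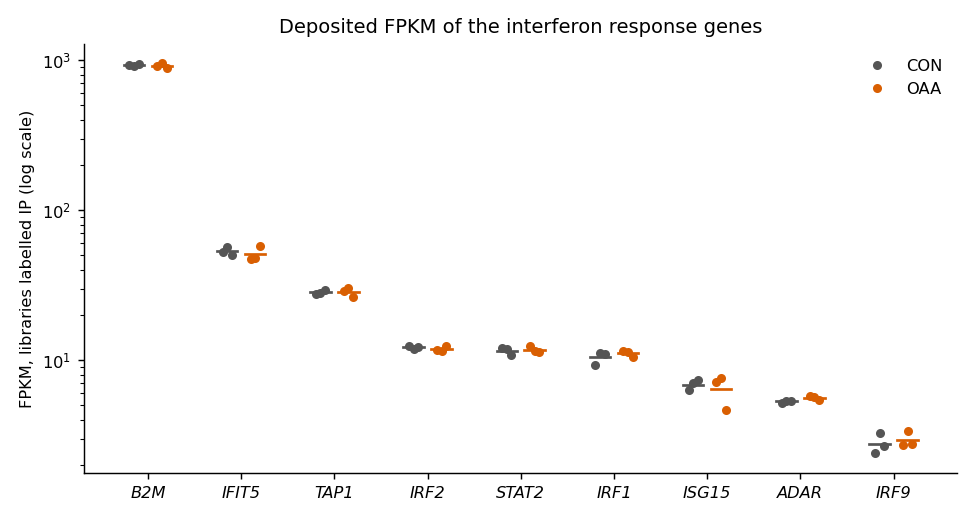
Deposited FPKM (log axis) of the 9 genes in the 6 libraries labelled IP. Points are libraries and bars the mean of 3. CON and OAA points overlap for every gene but ADAR (5.17 to 5.37 in CON, 5.41 to 5.77 in OAA), and B2M stands near 920 FPKM.

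In limma's moderated test on log2(FPKM + 1), with Benjamini-Hochberg adjustment over all genes, 0 of 10763 genes were called at an adjusted p under 0.05 (0%), and 356 (3.31%) had an unadjusted p under 0.05. None of the 9 was among the latter. Their differences, OAA minus CON on that scale, ran from -0.10 ± 0.14 (SE, n = 3 per group, ISG15) to 0.08 ± 0.08 (IRF1), with a median of 0.01 against -0.01 over all genes tested. ADAR was at 0.07 ± 0.07, with a 95% interval of -0.09 to 0.23. The narrowest interval was that of B2M, -0.10 to 0.08, and the widest that of ISG15, -0.42 to 0.22. Without OAA library 3, ISG15 was at 0.08 ± 0.08, and IFIT5 was at -0.14 ± 0.05, with the lowest p of the 9 (adjusted p = 0.244 by limma). In that setting 1763 of 10706 genes had an unadjusted p under 0.05, IFIT5 alone among the 9, and 0 were called.

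The 20 peaks are spread unevenly over the 8 genes. A gene with a peak has a median of 2 in these tables, and 21.4% have 4 or more. ADAR has 4, all its own. The first 3 lie side by side in its coding sequence, at chr4:95178860-95179384, chr4:95179485-95180059 and the narrow chr4:95180085-95180134, and the last spans the stop codon at chr4:95194524-95194798. IFIT5 has 3 of its own, annotated to its 5′ UTR (chr14:101254768-101260878, most of it upstream of the listed gene start), its start codon and coding sequence (chr14:101263629-101265236) and its stop codon with adjoining coding sequence and 3′ UTR (chr14:101265337-101266111). ISG15 has 2, over the start codon (chr6:63363198-63363874) and over the stop codon (chr6:63363975-63364199), which together cover most of this short gene. IRF2 has 1, at the stop codon and 3′ UTR (chr15:45547329-45547703). Coordinates are those of the deposited table; its genome build is not given in the sources used here, though 99.4% of 9804 genes matched by symbol share chromosome and overlap with their RefSeq entry on Sscrofa11.1.

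The identifiers in the tables are ENSSSCG00000006543 for ADAR, ENSSSCG00000010454 for IFIT5, ENSSSCG00000040575 for ISG15, ENSSSCG00000015782 for IRF2, ENSSSCG00000014277 for IRF1, ENSSSCG00000000396 for STAT2, ENSSSCG00000025618 for TAP1, ENSSSCG00000004687 for B2M and ENSSSCG00000002002 for IRF9.

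The other peaks are shared, but for the coding peak of B2M. IRF1 has 4, 1 in the 5′ UTR (chr2:134783476-134783550) and 3 in the 3′ UTR (chr2:134776734-134777008, chr2:134776584-134776658 and chr2:134776484-134776558), and all 4 also lie within the listed span of RAD50 on the opposite strand, with no transcript position there. The single STAT2 peak (chr5:21735449-21735698) is coding in STAT2 and 5′ UTR in PAN2 on the same strand. The single TAP1 peak (chr7:25071303-25071477) is coding in TAP1 and lies within the listed spans of PSMB8 and PSMB9, again with no transcript position. Of the 4 peaks listed under B2M, 3 have no position in a B2M transcript and lie in coding sequence of SPG11 on the opposite strand, and 1 (chr1:126840005-126842955) is in B2M coding sequence alone. Whether the counting used strand is not stated, so reads of overlapping genes cannot be told apart, and the 3 peaks in SPG11 cannot be taken as a measure of B2M.

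Read numbers set IFIT5 apart. Its stop codon peak held 223172 reads over the 6 libraries labelled input, the 30th highest of 25055 peaks, and 8784 over the 6 labelled IP, the 308th highest. Its start codon peak ranked 417th (43685 reads) and 769th (5118 reads). The 5′ UTR peak of the same gene held 265 and 46 reads. Over 8027 genes with a peak of their own and at least 1 FPKM, the labelled-input reads in IFIT5's peaks per FPKM exceeded those of 98.1% of genes, and its labelled-IP reads per FPKM those of 84.6%. The reads were not scaled to length while FPKM is, so this rank also rises with transcript length and peak width. Reads in peaks shared with another gene were left out.

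The gene listed as B2M was at the other end of that scale. Its level and peaks rest on an identifier that the deposited table alone names B2M, while the reference table gives that symbol to a different identifier. At 920 FPKM its own peak held 177 reads in the 6 libraries labelled input and 26 in the 6 labelled IP, and 0% of the 8027 genes had fewer labelled-input reads per FPKM. For labelled-IP reads, 0.125% had fewer. Only 1 of the 4 peaks listed under B2M entered this measure. It lies in a listed span of 8279 bp, apart from the span of 115689 bp that holds the other peaks. Whether that peak and the FPKM measure the same transcript was not tested, so these ranks cannot be taken as a property of B2M. The own peaks of ADAR held more labelled-input reads per FPKM than 80.3% of genes, those of ISG15 more than 49.4% and those of IRF2 more than 39.5%. The transcript of IRF9, with no peak, was at 2.87 FPKM, and 78.5% of the 1374 genes at 2 to 4 FPKM had at least 1 peak.

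Normalised read counts (CPM, scaled by TMM to the reads in all peaks) of the IFIT5 stop codon peak were 1872, 2109 and 2074 in CON labelled input and 1993, 1975 and 2121 in OAA labelled input. In the libraries labelled IP they were 321, 316 and 294 in CON and 288, 282 and 358 in OAA. The labels lay far apart and the treatments overlapped. The start codon peak was at 374, 421 and 402 CPM in CON labelled input against 173, 199 and 163 in CON labelled IP, again with no overlap. The other member peaks were all below 50 CPM in every library. The lowest of those tested were the 5′ UTR peak of IRF1, at 0.193 to 2.20 CPM over the 12 libraries, the 5′ UTR peak of IFIT5, and the coding peak of B2M. The smallest SPG11 peak listed under B2M, with 81 reads in labelled input and 4 in labelled IP, was filtered out, which left 19 of 20 peaks for the tests.

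**Figure D2:**
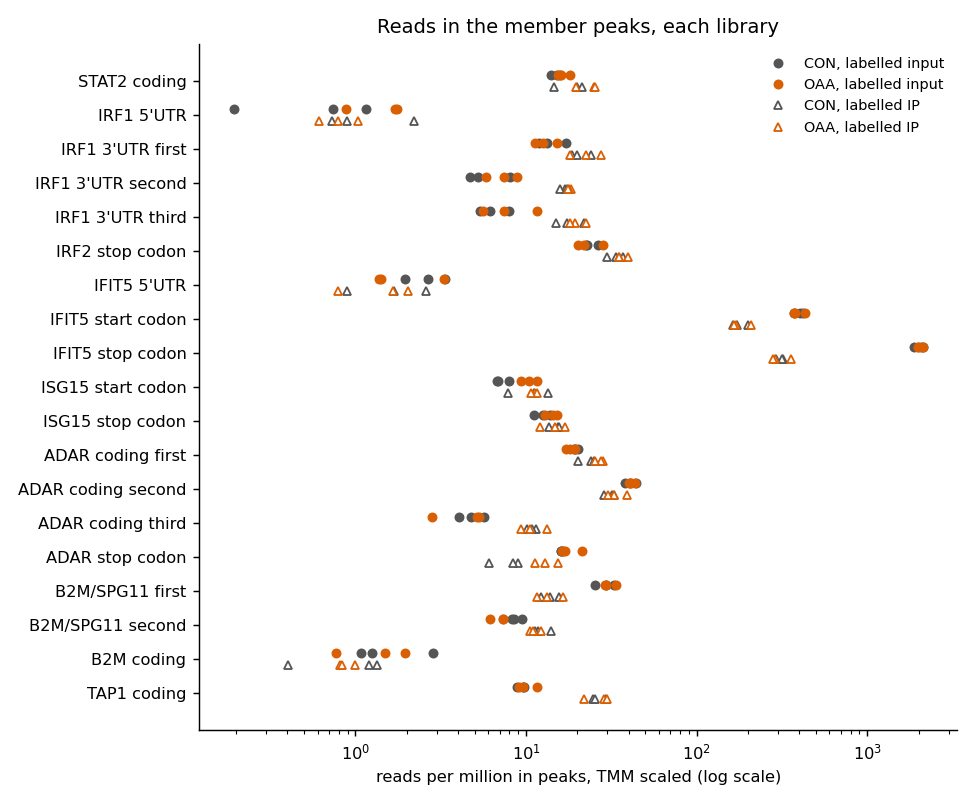
CPM in peaks, TMM scaled (log axis), of the 19 tested peaks in each of 12 libraries, filled circles for labelled input and open triangles for labelled IP. The IFIT5 stop codon peak lies at 1872 to 2121 in labelled input and 282 to 358 in labelled IP, and CON and OAA points of most peaks overlap within a label.

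The peak ratio asks how a peak's share of reads differs between the libraries labelled input and those labelled IP. TMM sets the typical peak near 0, so a positive ratio means above the typical peak and a negative ratio below it. The authors' deposited log2 ratios have another zero point. In CON, those of the member peaks ran from 2.40 (TAP1) to 6.60 (IFIT5 stop codon peak), with a median of 3.97 over all peaks. A negative ratio here is therefore relative to other peaks and does not by itself mean depletion. The 8 genes did not share a direction: 5 of the 19 peaks lay higher in CON at an adjusted p under 0.05 in edgeR's quasi-likelihood test and 8 lower, with 33.9% of all 24145 peaks tested called higher and 34.2% lower. Among the 11 peaks under 1 gene, 4 were higher and 3 lower. The median ratio of the 19 was -0.32 and that of the 11 was 0.40, against 0.03 over all peaks. In OAA 5 were higher and 9 lower, with 34.1% and 34.4% called over all peaks. Whether these counts differ from the shares over all peaks was not tested, and 19 peaks of 8 genes are few. Scaling by library size alone turned the split over all peaks from 8181 higher and 8250 lower to 6516 and 10068 in CON.

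IFIT5 held the highest ratio of the 19. Its stop codon peak was at 2.70 ± 0.08 in CON (log2 ± SE, n = 3 per group, adjusted p = 1.1e-23 by edgeR), a 6.51-fold ratio that exceeds that of 96.2% of peaks tested, and at 2.71 ± 0.08 in OAA. The start codon peak was at 1.16 ± 0.09 in CON and 1.12 ± 0.09 in OAA, both called. The 5′ UTR peak, at 0.60 ± 0.51 in CON, was not. Peaks over a stop codon had a median CON ratio of 0.35 over 5338 such peaks under 1 gene, and peaks over a start codon -0.14 over 4611.

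The peaks of ADAR pointed in both directions. The second coding peak was at 0.40 ± 0.13 in CON (CPM of 44.0, 40.5 and 38.3 in labelled input against 31.8, 28.8 and 32.9 in labelled IP, adjusted p = 0.0064 by edgeR) and the stop codon peak at 1.04 ± 0.20 (16.0, 16.4 and 16.1 against 8.96, 8.41 and 6.04). The third coding peak, the narrowest, was at -1.15 ± 0.26 in CON, and the first coding peak, at -0.24 ± 0.15, was not called in CON. In OAA the 4 ADAR peaks were at -0.57 ± 0.14, 0.29 ± 0.12, -1.31 ± 0.26 and 0.45 ± 0.18, from the first coding peak to the stop codon peak, and all were called. Scaling by library size alone lowered the median ratio of all peaks in CON to -0.28, and there the second coding peak was no longer called (0.09 in CON and 0.02 in OAA), nor was the stop codon peak in OAA (0.18). The OAA call of the second coding peak was also lost without OAA labelled-IP library 1 (0.25, adjusted p = 0.118 by edgeR) or library 3 (0.20, adjusted p = 0.184), and that of the stop codon peak without OAA labelled-IP library 1 (0.34) or 2 (0.43) or OAA labelled-input library 2 (0.39).

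The peaks of ISG15 lay at or below 0. The start codon peak was at -0.58 ± 0.22 in CON (adjusted p = 0.021 by edgeR) and -0.09 ± 0.21 in OAA, and the stop codon peak at -0.26 ± 0.18 and -0.04 ± 0.18, with no call beyond the first. That call was lost without CON labelled-IP library 1 (-0.56) or 3 (-0.40) or CON labelled-input library 1 (-0.46) or 2 (-0.47).

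Most transcription factor peaks lay below the typical peak. IRF2 was at -0.50 ± 0.15 in CON and -0.64 ± 0.14 in OAA, its CPM being 26.3, 22.8 and 22.4 in CON labelled input and 37.2, 30.02 and 33.8 in CON labelled IP. The second and the third 3′ UTR peaks of IRF1 were at -1.499 ± 0.219 and -1.48 ± 0.23 in CON and both at -1.28 in OAA, all called. The first 3′ UTR peak was at -0.56 ± 0.19 in CON and -0.80 ± 0.19 in OAA, and its 5′ UTR peak, with 38 labelled-input reads in CON, was not called in either treatment. The CON call of the first 3′ UTR peak was lost without CON labelled-input library 1 (-0.38) or 2 (-0.45) or CON labelled-IP library 2 (-0.45). STAT2 was at -0.32 ± 0.17 in CON (adjusted p = 0.103 by edgeR) and -0.49 ± 0.17 in OAA (adjusted p = 0.0099). It was called in CON without CON labelled-IP library 3 (-0.47), and not in OAA without OAA labelled-input library 1 (-0.40) or 3 (-0.36).

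In the antigen presentation pair, the TAP1 peak had one of the lowest ratios of the 19, -1.49 ± 0.17 in CON and -1.41 ± 0.17 in OAA, with 8.80, 9.70 and 9.61 CPM in CON labelled input against 24.9, 25.2 and 29.3 in CON labelled IP. The coding peak of B2M was at 0.85 ± 0.62 in CON and 0.67 ± 0.63 in OAA, with intervals from -0.43 to 2.12 and from -0.62 to 1.95, so that neither direction was detectable at its depth. The pair of tested peaks in SPG11 were at 1.06 ± 0.17 and -0.51 ± 0.20 in CON, the second of which was lost under RLE scaling (-0.42), in DESeq2 (-0.43) and without CON labelled-IP library 1 (-0.42) or CON labelled-input library 1 (-0.40), 2 (-0.49) or 3 (-0.43).

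**Figure D3:**
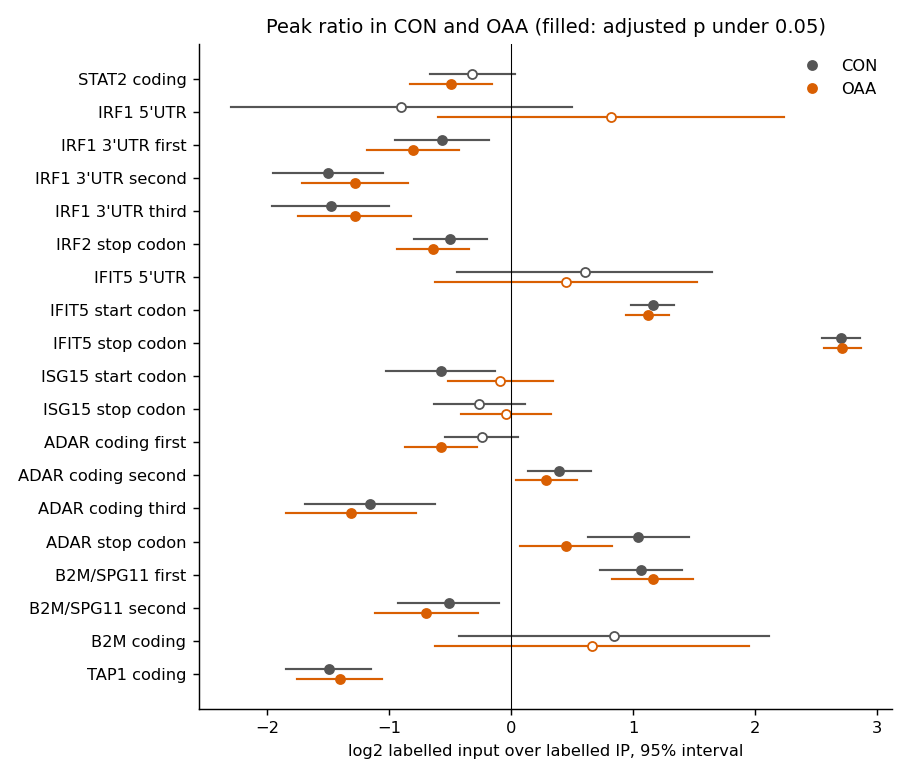
Log2 ratio of labelled input over labelled IP, with 95% intervals, of the 19 tested peaks in CON and OAA. Filled points have an adjusted p under 0.05. IFIT5's stop codon peak is the highest (2.70 in CON), and the IRF1 3′ UTR and TAP1 peaks are among the lowest.

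A ratio between peaks of 1 gene does not depend on how libraries are scaled. In IFIT5, the division of reads between the start and stop codon peaks differed between the labels. The stop codon peak held 83.5% ± 0.396 of the gene's peak reads in labelled input (SD, n = 6) and 63.1% ± 1.33 in labelled IP. It held 5.11 times the reads of the start codon peak in labelled input and 1.72 times in labelled IP, a log2 difference of 1.57 that was above 0 in 6 of 6 pairs of libraries of the same treatment and number. It was 1.54 in CON and 1.60 in OAA. The second coding peak of ADAR held 50.4% ± 1.54 of that gene's peak reads in labelled input and 41.3% ± 3.26 in labelled IP, and the third 5.64% ± 1.18 and 13.9% ± 1.97. The log2 difference between the labels was 0.75 for the second over the first coding peak and 1.61 for the second over the third, each above 0 in 6 of 6 such pairs. In ISG15 the shares overlapped, the stop codon peak holding 60.4% ± 4.78 and 57.4% ± 4.93.

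Ratios of 9 such pairs were compared, after their values had been seen, each by a two-sided exact permutation test of 6 labelled-input against 6 labelled-IP libraries. The first peak of each pair was the gene's peak with the most labelled-input reads. That choice uses the values tested and favours a higher ratio in labelled input. Other pairs within these genes were neither tested nor counted in the adjustment. The IFIT5 pair and the 2 ADAR pairs named above reached an exact p of 0.0022, the smallest that 924 regroupings give (exact permutation, adjusted p = 0.0049 over the 9 pairs), as did IFIT5's stop codon peak over its 5′ UTR peak. The first 3′ UTR peak of IRF1 over the second had an exact p of 0.0087 and over the third 0.026. ADAR's second coding peak over its stop codon peak had an exact p of 0.058, and ISG15's pair 0.31. Pairs of peaks in other genes were not compared, so whether such differences are particular to these genes was not tested. Over all peaks tested, 33.9% were called higher and 34.2% lower in the CON ratio. Per the labels' protocols, the extracted RNA was divided into the input and the antibody part, so libraries of the same number share their source. In the exact sign-flip test over these 6 pairs of libraries, whose independence the labels do not state, the 4 pairs with the smallest p and the first over the second 3′ UTR peak of IRF1 had p = 0.0312, the smallest it can give (adjusted p = 0.0563), and the first over the third 3′ UTR peak of IRF1 had p = 0.0938.

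**Figure D4:**
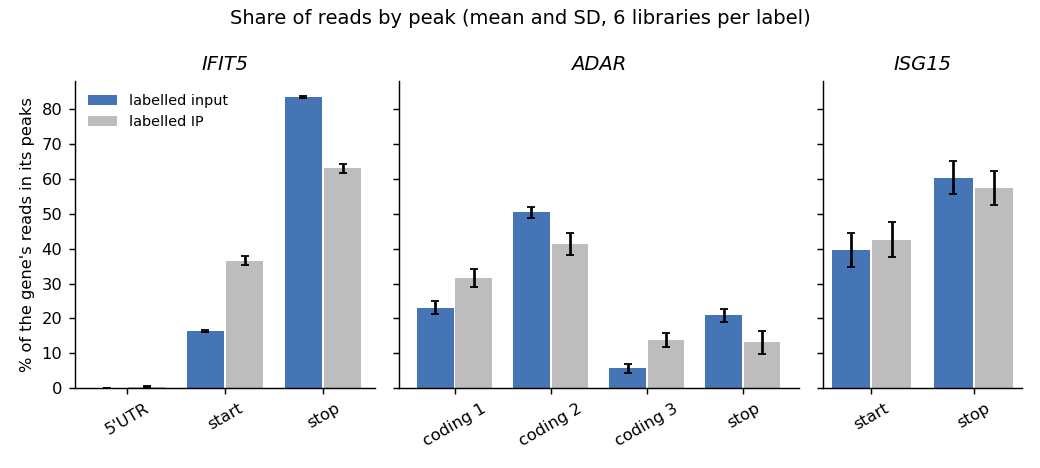
Percent of each gene's peak reads in each of its own peaks, mean and SD over 6 libraries per label, peaks in 5′ to 3′ order. The IFIT5 stop codon peak holds 83.5% in labelled input and 63.1% in labelled IP, and the ISG15 shares overlap.

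No member peak passed the test for a change with OAA. The peak ratio changed in 0 of 24145 peaks (0%) by edgeR, 1076 (4.46%) having an unadjusted p under 0.05, and in 1 by DESeq2. With the pair of libraries from one RNA as a block the count was 1, and that peak is no member. The changes of the 19 ran from -0.59 ± 0.28 (ADAR stop codon peak, unadjusted p = 0.040, adjusted p = 0.999 by edgeR) to 1.72 ± 0.97 (IRF1 5′ UTR peak), with a median of -0.11 against -0.01 over all peaks. ISG15's start codon peak was at 0.49 ± 0.30. For IFIT5's stop codon peak the change was 0.01 ± 0.10 with a 95% interval of -0.19 to 0.22. Without OAA labelled-IP library 3 it was 0.13 ± 0.08. The change of the ADAR stop codon peak was then -0.47 ± 0.29 (unadjusted p = 0.116 by edgeR). The authors' deposited table gives no difference with an adjusted p below 0.9998, and for these peaks its differences run from -0.52 (ADAR stop codon peak) to 2.83 (the SPG11 peak with 4 labelled-IP reads).

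Within the libraries labelled input, 3 of 24145 peaks (0.0124%) were called between OAA and CON by edgeR, none of them a member. Among them, named after their values were seen, are a peak under LACC1 and CCDC122 and a peak under CD2BP2 and MYLPF. ISG15's start codon peak was the member with the lowest p. It was at 6.79, 6.87 and 7.97 CPM in CON and 10.5, 9.41 and 11.7 in OAA, with all OAA libraries above all CON libraries, a log2 difference of 0.54 ± 0.20 (unadjusted p = 0.0098, adjusted p = 0.752 by edgeR, and 0.587 to 0.977 over its alternatives). Its stop codon peak was at 11.2, 13.7 and 12.5 CPM in CON and 14.4, 15.3 and 12.9 in OAA, which overlap. Groups did not overlap in 2 of the 19 peaks, ISG15's above and the second SPG11 peak below, with 5.34% of all peaks wholly higher and 5.6% wholly lower.

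Within the libraries labelled IP, 0 peaks were called (0%) by edgeR, 1042 (4.32%) having an unadjusted p under 0.05. ADAR's stop codon peak was at 8.96, 8.41 and 6.04 CPM in CON and 11.3, 13.0 and 15.4 in OAA, every OAA library above every CON library. The log2 difference was 0.75 ± 0.22 (unadjusted p = 0.0018, adjusted p = 1.00 by edgeR, and 0.813 to 1.00 over its alternatives), and 0.63 ± 0.24 without OAA library 3. Beside it, the first coding peak of ADAR was at 0.23 ± 0.16, the second at 0.14 ± 0.14 and the third at 0.03 ± 0.27, and ADAR's FPKM, from the same libraries, differed by 0.07. The ADAR stop codon peak did not pass the test in labelled input either (0.16 ± 0.17). In labelled IP, 3 of the 19 peaks had OAA wholly above CON (ADAR's stop codon and first coding peaks and the second 3′ UTR peak of IRF1) and 0 wholly below, with 5.32% and 4.46% over all peaks. Half-widths of the 95% intervals of the 19 had a median of 0.34 on the log2 scale in labelled input and 0.40 in labelled IP. The narrowest, of IFIT5's stop codon peak, were 0.141 and 0.149. In labelled IP that peak differed by -0.004 ± 0.073, and by -0.12 ± 0.06 without OAA library 3 (unadjusted p = 0.062 by edgeR).

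**Figure D5:**
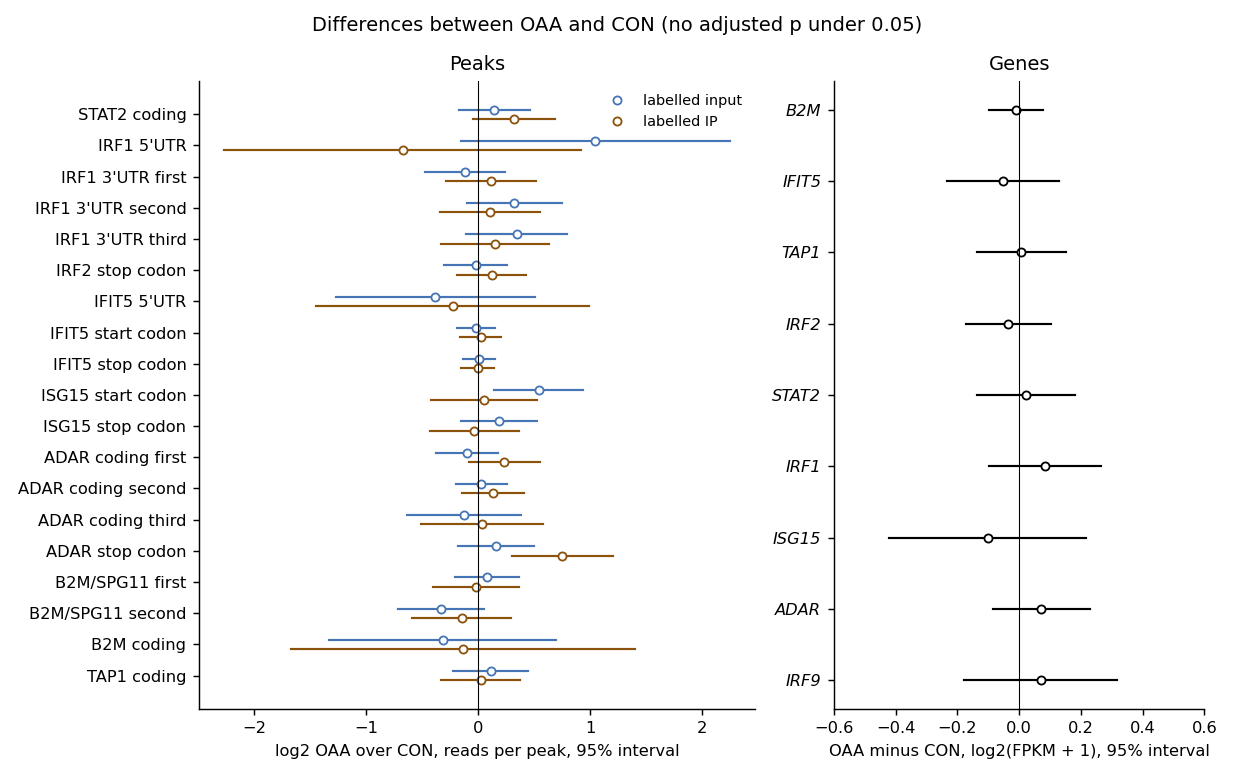
Log2 difference of OAA from CON with 95% intervals, left for reads of the 19 peaks in each label and right for log2(FPKM + 1) of the 9 genes. No adjusted p is under 0.05. Intervals of ISG15's start codon peak in labelled input (0.14 to 0.94) and of ADAR's stop codon peak in labelled IP (0.30 to 1.203) exclude 0 before adjustment.

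None of the other genes of the pathway passed the test for a difference in FPKM with OAA. The 7 lists, of 92 symbols in all, cover interferons and their receptors, JAK kinases and STATs, other IRF factors, nucleic acid sensors, antiviral effectors, antigen presentation and negative regulators. The expression table holds 82 of them, 4 at 0 in all 6 libraries (the interferon genes IFNB1, IFNK and IFNG, and the DNA sensor CGAS). Of the antiviral effectors 23 of 31 reached 1 FPKM, of the receptors and interferons 6 of 10, and of the negative regulators 4 of 6. Among those below it, named after their values were seen, were RSAD2 at 0.0823, IFIT2 at 0.0650 and OAS1 at 0.253 FPKM, all effectors, and USP18, which removes ISG15 from proteins, at 0.0657. Of the 65 tested, 0 were called by limma, and 28 lay above 0 and 37 below. An unadjusted p under 0.05 was found for 3, against 3.31% of all 10763 genes tested. These 3, named after their values were seen, lay higher in OAA without passing the adjusted test: IFNLR1, the receptor chain specific for interferon lambda, went from 0.770 ± 0.158 to 1.40 ± 0.197 FPKM (SD, n = 3), STING1, the adaptor of DNA sensing, from 2.42 ± 0.265 to 3.52 ± 1.08, and CALR, a chaperone of MHC class I loading, from 427 ± 5.50 to 462 ± 6.35. The adjusted p of each was 1.00. In CON, IFNLR1 was at 0.669, 0.952 and 0.689 FPKM, so it met the filter of 1 FPKM in 3 libraries only through OAA. Its unadjusted p therefore does not support a difference. STING1 was at 4.76, 2.76 and 3.04 FPKM in the OAA libraries, with library 1 standing apart.

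The kinases JAK1 and TYK2, which act below the interferon receptors, were at 34.9 and 32.6 FPKM. The receptor chains IFNGR2, of interferon gamma, and IFNAR1, of type I interferon, were at 25.0 and 14.1 FPKM. IRF3, an activator of interferon genes, was at 26.5 FPKM. TLR3, which binds double-stranded RNA in endosomes, was at 71.5 FPKM, the kinase TBK1 at 28.2 and the adaptor MAVS at 24.7. The highest effectors were IFITM3, which blocks viral entry, at 42.9 FPKM, SAMHD1, which hydrolyses dNTPs, at 24.1 and IFIT1, a relative of IFIT5, at 16.1. Of the negative regulators, PIAS1, an inhibitor of STAT signalling, was highest at 9.76 FPKM and SOCS3, an inhibitor of JAK signalling, was at 3.15.

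The lists hold 113 peaks of 51 genes under 1 gene alone, and 111 were tested. In CON 49 were called higher and 32 lower by edgeR, and in OAA 49 and 34. Over all 24145 peaks, 33.9% were called higher and 34.2% lower in CON, and 34.1% and 34.4% in OAA. In the list of interferons and receptors 11 of 17 were higher and 0 lower in CON, among them both stop codon peaks of IFNGR1 (1.00 and 1.68), a receptor chain of interferon gamma. These 17 peaks lie under only 7 genes, and peaks of the same gene are not independent. Antigen presentation genes were on both sides, 9 of 22 higher and 11 lower, with stop codon peaks of the chaperones CALR at -1.05 and PDIA3 at -1.58. No peak of these lists was called for a change with OAA in the ratio, in labelled input or in labelled IP, and 2, 5 and 7 of the 111 had an unadjusted p under 0.05, against 4.46%, 5.6% and 4.32% of all peaks.

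By correlation over the 6 libraries with the mean standardized level of the 9 genes, the most similar of 10754 other genes were PLAAT3 (r = 0.998), Vamp3 (r = 0.994) and RLBP1 (r = 0.993). This describes 6 points, and the values of all genes in a library share its depth and preparation. The mean standardized level was lowest in OAA library 3 (-0.445) and CON library 1 (-0.370) and highest in OAA library 2 (0.464), so the treatments interleaved.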

How the data were processed

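Per the file headers, the deposited peak table holds read counts of each of the 12 libraries in each merged peak, the authors' log2 ratio per treatment and their p-value and −log10 p-value for the difference. The deposited gene table holds FPKM of the 6 libraries labelled IP. The submitters' processing notes name Bowtie2 and HISAT2, without version or role; a genome build is not given in the sources used here. Per the labels' protocols, RNA was fragmented to about 100 nt.

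Each of the 25055 peaks was used once; starts in the table count from 0 and coordinates printed here from 1. Counts were fitted over all 12 libraries with edgeR 4.0.16 (quasi-likelihood, TMM, filterByExpr; 24145 peaks) in R 4.3.3, and log2(FPKM + 1) with limma 3.58.1 (trend) for genes at 1 FPKM or more in 3 libraries. On that scale the change of a gene at low FPKM is understated. An adjusted p under 0.05 was called. Scripts were tested on simulated data. Intervals cover the spread between libraries; the labels mention no molecular identifiers. Steps in low FPKM values did not give a clear relative depth, so depth behind FPKM is unknown.

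The named genes are the 9 members with all their peaks and, of each list, up to 4 genes with the highest mean FPKM and any that passed a test; others are said to be named after their values were seen. Members, lists and tests were chosen with earlier results of these data known. The identifier of IRF9 came from a reference table, and B2M is named by the deposited table alone; the reference table gives B2M to another identifier, and RefSeq has 2 entries of that name. Chi-square per degree of freedom between replicates was 2.05 to 8.86 and no pair held identical values. Libraries of one treatment and number come from one RNA, per the labels' protocols; deviations of these pairs correlated at -0.039 to 0.048 in CON and 0.048 to 0.163 in OAA. All columns of libraries were matched to a sample (0 unmatched). Some items of the lists and calls are not reported here.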

Additional observations from a re-analysis of the deposited data

How the results depend on the processing

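The 19 tested peaks and 9 genes were recomputed under other scalings, filters, tools, blocks and without each library. None reversed a called direction; the ratio calls of member peaks were lost 14 times in CON and 9 times in OAA over all settings, and gained 4 times in CON. The SPG11 peak listed under B2M that the filter removes, with 55 labelled-input reads and 1 labelled-IP read in OAA, was called higher in OAA in 5 of the 5 settings that tested it (3.16 to 6.61), and in none of 5 in CON. No difference between OAA and CON gained one. Library size alone moved the split of called ratios from 8181 higher and 8250 lower to 6516 and 10068 in CON, and from 8237 and 8295 to 6729 and 9892 in OAA; STAT2 (-0.62), ISG15's stop codon peak (-0.57) and ADAR's first coding peak (-0.54) were then called lower in CON. Summed per gene over 9097 genes, fewer features, 6977 ratios were called in CON and 6977 in OAA. With the pair of libraries from one RNA as a replicate block, 16315 were called in CON, 16468 in OAA and 1 change of ratio; the block changed no call of a member. The change of ratio gave 1 call by DESeq2, and 0 to 1 without single libraries. OAA against CON in labelled input (3 calls) gave 0 in a fit of those groups alone, 8 by DESeq2, 0 summed per gene, and 0 to 2 without single libraries; labelled IP gave 1 in a fit of those groups alone, 1 with replicate number as a block, and 0 to 3 without single libraries (3 without OAA library 3). Replicate numbers showed no pairing between treatments (correlation of deviations -0.149 to 0.013). In CON, libraries from one RNA correlated at only -0.039 to 0.048, so this check cannot exclude pairing. FPKM gave 1 call without a filter on low values and 0 whichever single library was left out. The cause of these shifts was not tested. No call under these alternatives fell on a member for any difference between OAA and CON. The signs of uncalled estimates were not stable. Between OAA and CON, the sign changed in at least 1 setting for 5 of the 9 genes in FPKM. It also changed for 9 of the 19 peaks in labelled input and 11 in labelled IP. In the change of ratio it did so for 9 peaks, and in the OAA ratio for 3. Depth limits the 5′ UTR peaks of IRF1 and IFIT5 and the coding peak of B2M, with 117, 265 and 177 labelled-input reads.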
